A study of Arabidopsis thaliana with 5 samples.

Results

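The floral organ identity genes of Arabidopsis thaliana were followed in double-stranded RNA (dsRNA) and small RNA (smRNA) libraries from unopened flower buds. The 9 genes were taken from the ABC(E) model by name and locus: AP1 (AT1G69120) and AP2 (AT4G36920) of class A, AP3 (AT3G54340) and PI (AT5G20240) of class B, AG (AT4G18960) of class C, and SEP1 (AT5G15800), SEP2 (AT3G02310), SEP3 (AT1G24260) and SEP4 (AT2G03710) of class E. They are 9 of the 27444 nuclear protein-coding genes annotated. No measured value was used to choose them.

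The study sequenced base-paired RNA after digestion of single-stranded RNA with the ribonuclease RNase One (dsRNA-seq), and small RNAs from the same tissue (smRNA-seq). The groups were rdr6 mutant plants (allele rdr6-11, in the Col-0 background) with 1 round of rRNA depletion (rdr6 1X), wild-type Col-0 plants with 2 rounds (Col-0 2X) and wild-type Col-0 plants with 1 round (Col-0 1X) for dsRNA-seq, and rdr6 and wild-type Col-0 plants for smRNA-seq. Plants were 6 weeks old, no treatment is given in the labels, and RNA of 3 biological replicates was pooled into each dsRNA-seq library. Each group was therefore 1 library, no difference has a replicate check, and every test compares the reads of 2 libraries rather than 2 genotypes.

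In the ABC(E) model, class A genes specify sepals, A with B petals, B with C stamens and C alone carpels, with the class E genes needed in all whorls. All of the genes except AP2 encode MADS-box transcription factors, which bind DNA as complexes and share a conserved DNA-binding domain at the start of the protein. AP2 belongs to another family, and its mRNA is a target of the microRNA miR172, which represses AP2 and its relatives. RDR6 is an RNA-dependent RNA polymerase that copies certain RNAs, often after cleavage by a microRNA, into dsRNA that is cut into small interfering RNAs. These are phased for the trans-acting siRNA (TAS) transcripts, the best-known substrates. The study found no phasing for most of the RDR6 substrates that it identified.

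The genes lie on all 5 nuclear chromosomes (TAIR10.1 annotation, whose nuclear coordinates hold every TAIR9 position of the files). AP1 is at chr1:25982294-25986349 (minus strand) and SEP3 at chr1:8593536-8596123 (minus). SEP4 is at chr2:1129229-1131838 (plus), AP3 at chr3:20119140-20121314 (minus) and SEP2 at chr3:464279-467151 (minus). AG is at chr4:10382856-10388539 (plus), AP2 at chr4:17400610-17403469 (plus), PI at chr5:6828904-6831515 (plus) and SEP1 at chr5:5151334-5154253 (minus). Together they hold 14118 exon bases and 14260 intron bases, so that introns are 50.3% of their length.

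The dsRNA libraries held 8193747 (rdr6 1X) to 13773151 (Col-0 2X) mapped reads and the smRNA libraries 11123274 (rdr6) and 10674768 (Col-0). Between 17.3% and 32.2% of the dsRNA reads and between 57.8% and 61.3% of the smRNA reads had a single genome location. Libraries were made by adapter ligation and keep the strand. The 5 TAS genes checked the genotype labels: they had 622 smRNA reads in rdr6 against 60560 in Col-0, and 118 dsRNA reads in rdr6 1X against 6510 in Col-0 1X, with 942 in Col-0 2X. RDR6 itself kept 11 dsRNA reads in rdr6 1X against 23 in Col-0 1X, so its own level does not mark the allele. Of 6 tapetum and anther genes at least 5 had sense exon reads in each dsRNA library (113, 464 and 188 reads in rdr6 1X, Col-0 2X and Col-0 1X), while 3 seed storage genes and 3 root hair genes had at most 4 reads per list and library.

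AP2 was the member on which the smRNA libraries differed. In Col-0, 75 smRNA reads lay on AP2 outside its miR172 site, each with a single genome location, and in rdr6 there were 0. The site itself, in the coding part of exon 10 of 10, was occupied in both genotypes by antisense reads that match miR172. The sequences below show where these reads fall and which miR172 forms can be told apart. The mature 3p sequences have the seed (bases 2 to 8) in capitals. The AP2 site has capitals at the base that differs from the exact complement of miR172c and d. The place of the most frequent AP2 smRNA outside the site follows. All are from the TAIR10.1 reference (NCBI RefSeq), 5′ to 3′.
miR172a and miR172b-3p: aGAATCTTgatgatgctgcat
miR172c and miR172d-3p: aGAATCTTgatgatgctgcag
miR172e-3p: gGAATCTTgatgatgctgcat
AP2 site, chr4:17403019-17403039, plus strand: ctgcagcatcatcaGgattct
AP2 reference sequence of the smRNA with 9 reads in Col-0, chr4:17402912-17402932, plus strand: tccgggcagcagcaacattgg

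All of the miR172 forms share 1 seed and differ at the first and last bases. Counted from the 5′ end of the site, AP2 departs from the exact complement of miR172c and d at 1 position, A15G. This is a G opposite a U of the microRNA, and such G and U pairs were counted as departures. The 5 AP2-like relatives carry the same A15G change in their own coding sequences. Departures in all were 2 in TOE1 and TOE2, 3 in TOE3 and SMZ, and 4 in SNZ. Their sites are shown to set beside that of AP2, with all departures in capitals.
TOE1, chr2:12226233-12226253, minus strand: cAgcagcatcatcaGgattct
TOE2, chr5:24210889-24210909, plus strand: AtgcagcatcatcaGgattct
TOE3, chr5:26802175-26802195, minus strand: TGgcagcatcatcaGgattct
SMZ, chr3:20373774-20373794, minus strand: TtgcagcatcatcaGgattcC
SNZ, chr2:16389066-16389086, minus strand: TtgTagcatcatcaGgattcC

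The reads at the AP2 site numbered 993 (89.3 reads per 1000000 mapped, RPM) in rdr6 smRNA against 1590 (149 RPM) in Col-0 smRNA. Of these, 99.7% in rdr6 and 100% in Col-0 also had a location at the miR172c or miR172d gene, in alignments that allowed a few mismatches, and such reads cannot be told apart from miR172. The miR172c and d sequence had 1040 reads in rdr6 smRNA against 1664 in Col-0 smRNA, while the sequence of miR172a and b had 6063 reads in rdr6 and 5633 in Col-0. The miR172e-3p sequence was less frequent, with 82 reads in rdr6 and 134 in Col-0. Taken over all 3p forms the level was 636 RPM in rdr6 against 684 RPM in Col-0.

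Counted over the whole gene, with reads at every location, AP2 had 993 smRNA reads in rdr6 and 1665 in Col-0 (log2 ratio per mapped read -0.81, 95% interval -0.92 to -0.69). The Audic-Claverie test, an exact comparison of 2 Poisson counts, gave a one-sided exact p of 1.1e-45, but the difference was under the 2-fold minimum, and AP2 did not pass the call rule of at least 10 reads in the pair, at least 2-fold and p under 0.001. None of the 4 members with enough reads (AP2, AG, SEP1 and SEP3) was called, beside 1.12% of the 5463 genes tested called higher and 2.97% called lower, and AP2 was the only one of the 4 with an unadjusted exact p under 0.05. With reads of a single location AP2 fell in rdr6, with 1 read in rdr6 against 75 in Col-0 (log2 ratio -6.29, interval -11.61 to -3.77, exact p = 2.2e-22), beside 3.74% of the 3285 genes tested called lower and 1.83% called higher in that count, in which no other member was called. All intervals are at 95% and cover counting error only, since reads amplified by PCR without molecular identifiers are not independent molecules.

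Outside the site the level in Col-0 was 7.03 RPM, which is 26.1 times the level that a floor of 3 counts gives for the 0 reads of rdr6 (0.270 RPM), and the counting interval of the ratio began at 20.7 (exact p = 5.6e-24). The 75 reads were of 61 different sequences, 54 of them seen once. Sense reads made up 50 of the 75 (66.7%, Wilson interval 55.4 to 76.3) and antisense reads 25. By length, 57 were of 21 nt (76.0%, 65.2 to 84.2), 10 of 22 nt and 3 of 24 nt. Small RNAs of both strands and mainly of 21 nt were therefore present on AP2 in Col-0 and were not detected in rdr6 at this depth.

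These smRNAs were confined to exons in the Col-0 library: all 75 had their middle base in an exon and 0 of 75 in an intron (upper bound 4.87%). MicroRNAs cut their targets opposite bases 10 and 11. Relative to that position for miR172, 71 reads lay on the 5′ side (94.7%, 87.1 to 97.9) and 4 on the 3′ side. The site is in the last exon, which holds 483 of the 1825 bases of the main mRNA, so most of the mRNA is on the 5′ side. No share of bases was set against the share of reads. The reads reached from 398 to 2493 bases from the gene start, with the site beginning at 2409. Of them, 39 were within 150 bases of the cut position on its 5′ side. The most frequent sequence, printed with the site, ended 97 bases before that position. Taking the 57 reads of 21 nt by register, that is, by distance to the cut position in steps of 21, the fullest register held 14 of them, including all 9 reads of the most frequent sequence, and the register in phase with the cut position held 3.

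**Figure D1:**
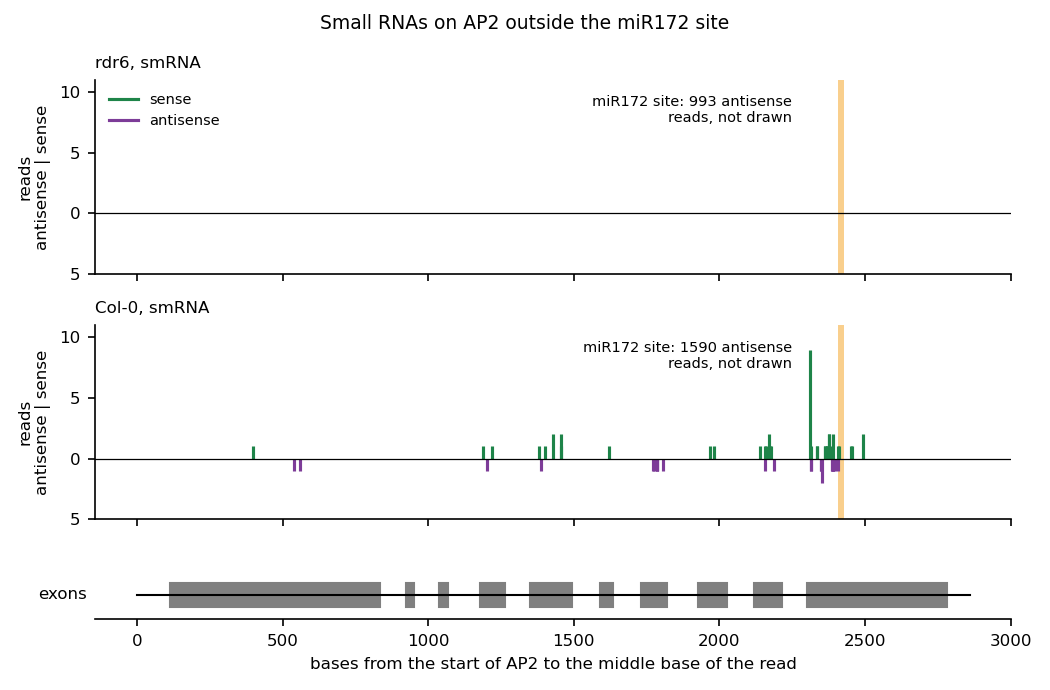
Small RNA reads on AP2 outside the miR172 site, by the distance of the middle base from the gene start (x axis, bases) and with the number of reads on the y axis, sense upward and antisense downward, in rdr6 (top) and Col-0 (middle), over the exons of the main mRNA (bottom). The rdr6 library has 0 reads, and 71 of the 75 Col-0 reads lie to the left of the cut position in the miR172 site (orange band, whose reads are not drawn).

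The relatives of AP2 had few smRNAs outside their sites. With single-location reads, SMZ had 0 in rdr6 against 8 in Col-0 and TOE2 0 against 6. TOE1 had 6 in each library, TOE3 1 in each and SNZ 0 in each. None of the 5 passed the call rule outside the site, but only TOE1 had the 10 reads in the pair that the rule needs. The others could not be called whatever their ratio. SMZ, a repressor of flowering, was called lower over the whole gene (4 reads in rdr6 against 21 in Col-0, log2 ratio -2.45, exact p = 3.2e-04). The site of TOE2, which matches miR172a and b more closely, held 6350 reads in rdr6 and 5869 in Col-0.

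The other 8 members had almost no smRNAs, 37 reads in rdr6 and 32 in Col-0 in all. AG, which specifies stamens and carpels and ends the growth of the floral meristem, had 10 reads in rdr6, the most there, and 6 in Col-0, as many as SEP1 and SEP3. AP1, which also gives the young flower its identity, had 3 reads in rdr6 and 0 in Col-0, and the remaining 6 genes had 2 to 6 reads in each library. Differences between these counts were not detectable at this depth.

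The dsRNA signal of AP2 was also low in the mutant. AP2 had 8 sense exon reads in rdr6 1X (0.489 reads per kb of exon per 1000000 mapped reads, RPKM, with a Poisson interval of 0.211 to 0.964), against 33 in Col-0 1X (1.61, 1.11 to 2.26), and it had 56 in Col-0 2X (2.04, 1.54 to 2.65). The rdr6 interval was below both Col-0 intervals. Sense exon reads of AP2 fell 3.28-fold in rdr6 1X relative to Col-0 1X (log2 ratio -1.72, interval -3.04 to -0.57, one-sided exact Audic-Claverie p = 8.0e-04), and it was the 1 member of 9 called lower, beside 1.20% of the 15051 genes tested. In bulk tissue, fewer cells that express a gene and less of its RNA per cell cannot be told apart, and dsRNA-seq gives base-paired RNA rather than the amount of mRNA.

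This call rested on few reads. With reads placed by their 5′ base, AP2 had 9 reads in rdr6 1X and 30 in Col-0 1X (log2 ratio -1.41, exact p = 0.00499) and was not called. Without reads of 20 to 25 nt, the size of small RNAs, it had 5 reads in rdr6 1X and 28 in Col-0 1X (log2 ratio -2.16, exact p = 3.9e-04). Within 150 bases on the 5′ side of the miR172 cut position, where the Col-0 smRNAs were most frequent, AP2 had 1 dsRNA read in rdr6 1X, 11 in Col-0 2X and 13 in Col-0 1X.

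MicroRNA reads also differed among the dsRNA libraries, and not in 1 direction. The miR172 3p forms had 24 reads (2.93 RPM) in rdr6 1X, 1449 (105 RPM) in Col-0 2X and 1437 (140 RPM) in Col-0 1X, but the sequence of miR172a and b was at 2.32 RPM in rdr6 1X, 4.28 RPM in Col-0 2X and 113 RPM in Col-0 1X, and that of miR172c and d at 0.976, 103 and 28.5 RPM. Reads with a location at both sequences were counted for each. Col-0 2X was thus below Col-0 1X for the first sequence and above it for the second. At the AP2 site 8, 1351 and 285 reads lay antisense, which are not part of the sense counts above. The part of these differences in the AP2 result was not tested.

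The MADS-box members were well represented among dsRNA reads. In RPKM, PI was first in all 3 libraries: PI, which forms the B-class complex with AP3, had 11.8 (9.82 to 14) in rdr6 1X, 16.7 (14.9 to 18.7) in Col-0 2X and 16.2 (14.1 to 18.5) in Col-0 1X. These levels are above those of 97.5%, 98.4% and 98.7% of all protein-coding genes in the 3 libraries. SEP3, the class E gene that links the other classes into complexes, had 11.6 in rdr6 1X, 11.8 in Col-0 2X and 8.33 in Col-0 1X. AP3 stood at 5.33, 10 and 5.84 in the same order of libraries.

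SEP1 and SEP2, a closely related pair with overlapping functions, had similar levels when reads that match both were counted at each. SEP1 had 7.95, 9.55 and 7.72 and SEP2 had 7.37, 11.5 and 6.82 in rdr6 1X, Col-0 2X and Col-0 1X. With single-location reads SEP1 had 4.53, 5.49 and 4.56 and SEP2 had 4.17, 7.72 and 3.76. With reads at every location AP1 was lower than SEP1 and SEP2, with 4.34, 6.83 and 3.57. AG had 1.70, 4.06 and 1.64, and SEP4, which acts in meristem as well as organ identity, had 1.09, 3.09 and 0.867. Each of the 9 genes was above the median of all genes, which was 0.428, 0.643 and 0.360, in every library. For AP2 in rdr6 1X, however, the Poisson interval of 0.211 to 0.964 held the median. With single-location reads SEP4 had 0.335, 0.449 and 0.334, and no median of all genes was computed for such reads.

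Neighbours in the order of levels mostly had overlapping Poisson intervals. In rdr6 1X the only gap was between AP1 and AG. In Col-0 2X, gaps lay between PI and SEP3, SEP1 and AP1, and AP1 and AG. In Col-0 1X they lay between PI and SEP3, AP3 and AP1, and AP1 and AG. Among reads with a single location PI was again first (11.6, 16.5 and 16.2) and SEP4 last (0.335, 0.449 and 0.334) in all 3 libraries, and AP1 dropped to 2.52, 3.33 and 1.45.

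**Figure D2:**
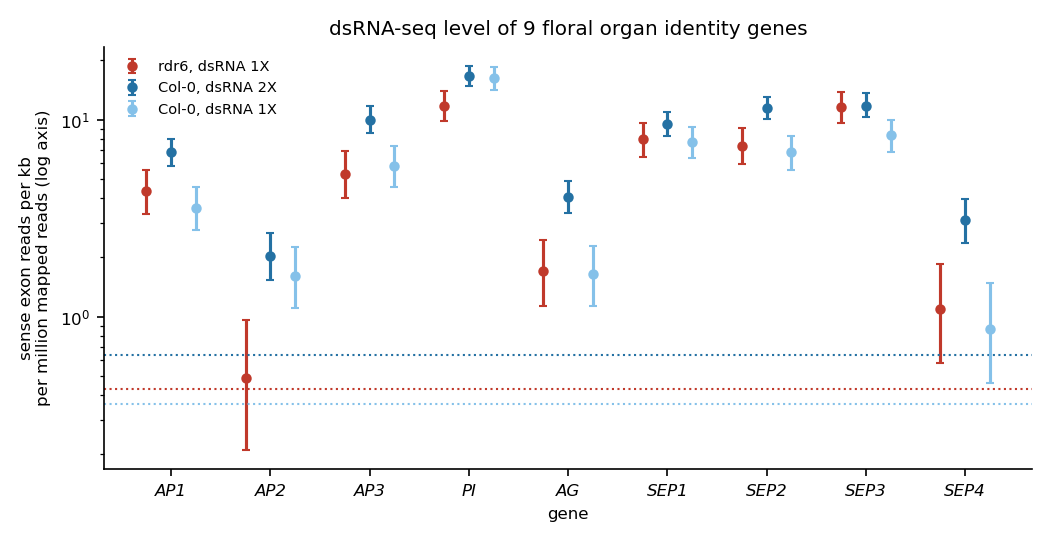
Level of each floral organ identity gene in the 3 dsRNA-seq libraries, in RPKM (sense exon reads per kb of exon per 1000000 mapped reads) on a log axis, with 95% Poisson intervals as bars and the median of all protein-coding genes as a dotted line of the same colour. PI is highest in each library (11.8 to 16.7), and AP2 in rdr6 1X is lowest at 0.489.

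The comparison of rdr6 1X with Col-0 1X was made on sense exon reads of 1 library each. It leaves out antisense copies of the mRNAs, so it cannot show which RNAs RDR6 copies. Apart from AP2, the members differed little. PI had 126 sense exon reads in rdr6 1X and 218 in Col-0 1X (log2 ratio -0.46, interval -0.79 to -0.14, exact p = 0.00228), and SEP3 had 121 in rdr6 1X and 109 in Col-0 1X (0.48, 0.09 to 0.87, exact p = 0.00702). Neither reached 2-fold or the threshold. The other 6 genes had log2 ratios between -0.13 (AP3) and 0.33 (SEP4), and all of their intervals held 0.

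None of the 9 genes was called higher in rdr6 1X, beside 6.18% of all genes tested. The median log2 ratio was 0.06 over the members and 0.33 over all genes, and 1 of 9 members, SEP3, was above the median of all genes. Scaling by sense exon reads of protein-coding genes in place of all mapped reads moved the median of all genes to -0.03 and the share of calls that were higher to 58.2%, against 83.8%. Relative to the median of all genes, AP2 was at -2.04, and 1.90% of genes were lower.

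The Col-0 2X library served as a further reference for the same rdr6 library. In this comparison genotype, rounds of rRNA depletion and 3′ adapter sequence differ together and cannot be told apart. Against Col-0 2X, AP2 was again lower (8 reads in rdr6 1X and 56 in Col-0 2X, log2 ratio -2.06, exact p = 9.5e-06), as were AG (29 and 116 reads, log2 ratio -1.25) and SEP4 (13 and 62 reads, -1.50). These are 3 of 9 members called lower, beside 12.4% of the 17531 genes tested, and none was called higher, beside 5.85%. The median log2 ratio was -0.65 over the members and -0.67 over all genes. Against Col-0 1X, AG (29 reads in rdr6 1X and 35 in Col-0 1X) and SEP4 (13 in each) were not called.

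The 2 wild-type libraries differ in rounds of rRNA depletion and in the 3′ adapter sequence that the labels give, which cannot be told apart, and this comparison shares the Col-0 1X library with the one between genotypes. Sense exon reads per mapped read were above those of Col-0 1X in Col-0 2X for all 9 members, but under scaling by reads of protein-coding genes for only 5, with AP2 at -0.25, PI at -0.55, SEP1 at -0.28 and SEP3 at -0.09 on the log2 scale. With scaling by mapped reads the members had a median log2 ratio of 0.75, against 0.91 over all genes, and 3 of 9 members were above the median of all genes. AG (116 reads in Col-0 2X and 35 in Col-0 1X, log2 ratio 1.31, interval 0.75 to 1.90, exact p = 3.8e-07) and SEP4 (62 and 13 reads, 1.83, 0.96 to 2.82, exact p = 2.6e-06) were called higher, 2 of 9 members beside 21.4% of the 17479 genes tested. None was called lower, beside 3.50% of all genes. Scaled by reads of protein-coding genes, the median of all genes was 0.32, 38% of calls were higher, against 86.0%, and no member was called.

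Most of the reads behind each of these 2 calls lay in a single exon. In AG, 66 of the Col-0 2X reads lay in exon 5, of 100 bases, which held 7 reads in Col-0 1X and 8 in rdr6 1X. In SEP4, 57 of 62 Col-0 2X reads lay in exon 1, and with single-location reads SEP4 had 9 reads in Col-0 2X and 5 in Col-0 1X and was not called. With such reads AP1 (80 and 26 reads, log2 ratio 1.20) and SEP2 (162 and 59 reads, log2 ratio 1.04) passed together with AG. PI was the member that differed least, with 301 reads in Col-0 2X and 218 in Col-0 1X (log2 ratio 0.05, interval -0.21 to 0.30).

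**Figure D3:**
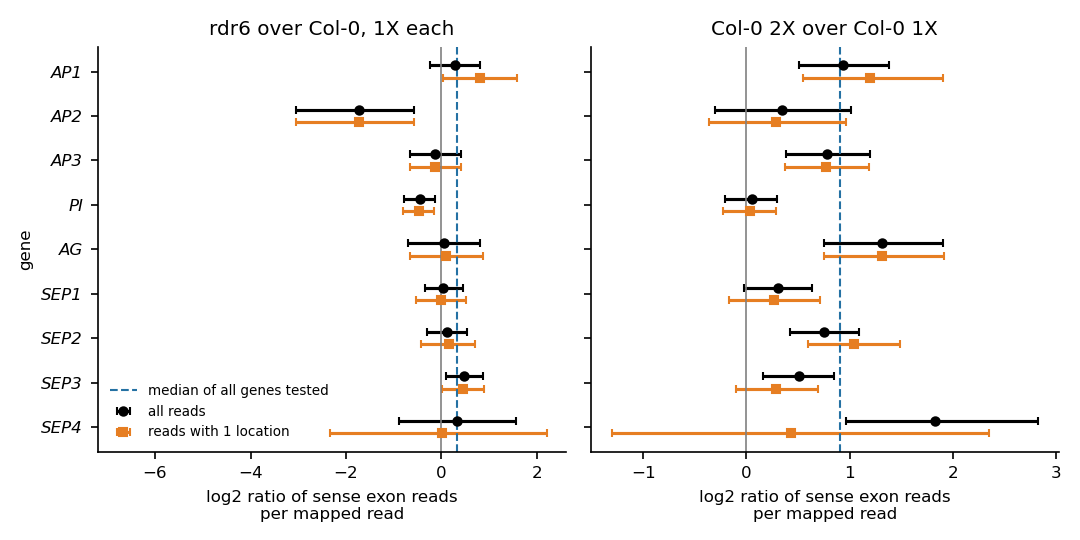
Log2 ratio of sense exon reads per mapped read for each gene (x axis), rdr6 over Col-0 with 1 round of depletion each (left) and Col-0 2X over Col-0 1X (right), for all reads (black) and for reads with 1 location (orange), with 95% counting intervals and the median of all genes tested as a dashed line. AP2 at -1.72 is lowest on the left, with an interval that overlaps that of PI, and AG at 1.31 and SEP4 at 1.83 are highest on the right for all reads.

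The strand of a dsRNA read separates pieces of the mRNA from pieces of an antisense RNA. Leaving AP2 aside, antisense reads were nearly absent: the other 8 genes had 7 antisense exon reads in rdr6 1X, 3 in Col-0 2X and 0 in Col-0 1X, and their sense shares were 98.8%, 99.8% and 100%. Over all 9 genes the sense share of exon reads was 97.6% in rdr6 1X (604 of 619 reads, Wilson interval 96.0 to 98.5), 52.8% in Col-0 2X (1517 sense and 1356 antisense reads) and 73.0% in Col-0 1X (774 and 286). Without the reads at the miR172 site of AP2 these shares were 98.9%, 99.7% and 99.9%. Outside the site AP2 had almost no antisense reads in any library, 0 in rdr6 1X, 2 in Col-0 2X and 1 in Col-0 1X. The 15 antisense exon reads of rdr6 1X were 8 at the site and 7 on the other 8 genes. Over all protein-coding genes the sense share was 62.0%, 84.5% and 69.1%, and for single-location reads 84.0%, 95.5% and 89.8%, against 98.7%, 99.6% and 99.8% for the members.

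Introns contributed little. The introns of the 9 genes held 17 sense and 0 antisense reads in rdr6 1X, 65 sense reads of 71 in Col-0 2X (91.5%) and 33 of 34 in Col-0 1X (97.1%). They made up 2.74%, 4.11% and 4.09% of the sense reads of the members in these libraries while holding 50.3% of the bases, and exon reads per kb exceeded intron reads per kb in all 9 genes in every library. Over all genes introns made up 23.5%, 10.3% and 26.2% of sense reads, but with single-location reads the shares were 5.62%, 3.19% and 5.16%, against 3.57%, 5.07% and 5.0% for the members.

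The long second intron of AG, of 2999 bases in the main mRNA, which carries regulatory DNA of the gene, had 6 sense reads in rdr6 1X, 16 in Col-0 2X and 9 in Col-0 1X. The first intron of SEP3 had 2, 5 and 8. Of the 61 introns of the main mRNAs, the 8 longer than 500 bases (8897 bases) had 13, 53 and 23 sense reads, and the 53 shorter ones (6508 bases) had 9, 19 and 12.

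Along the mRNAs, the exon with the start codon (exon 1, or exon 2 in AG) encodes the MADS domain in the MADS-box genes, and it held a large share of the reads of several of them. In PI it held 64.3% of sense reads in rdr6 1X, 57.0% in Col-0 2X and 69.3% in Col-0 1X, and 44.9% of the mRNA bases. In SEP3 it held 62.8%, 54.6% and 67.0% of reads and 34.9% of bases. In AP1 it held 65.5%, 54.1% and 69.4% of reads and 33.2% of bases.

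Its share of reads exceeded its share of bases in 8, 7 and 7 of the 9 genes in rdr6 1X, Col-0 2X and Col-0 1X. Among all genes with introns and 50 to 350 reads, this was so in 35.3%, 34.0% and 34.1%. AP2, AG and SEP4 had fewer reads than this range in rdr6 1X and Col-0 1X. AP2, without a MADS box, had 12.5%, 39.3% and 30.3% of reads in exon 1 for 39.5% of bases. AP3 varied among libraries, with 41.5%, 36.9% and 20.5% of reads for 34.2% of bases, as did AG, with 37.9%, 11.3% and 22.9% of reads for 15.3% of bases. In SEP1 the exon held 55.0%, 48.5% and 44.3% of reads for 43.7% of bases.

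**Figure D4:**
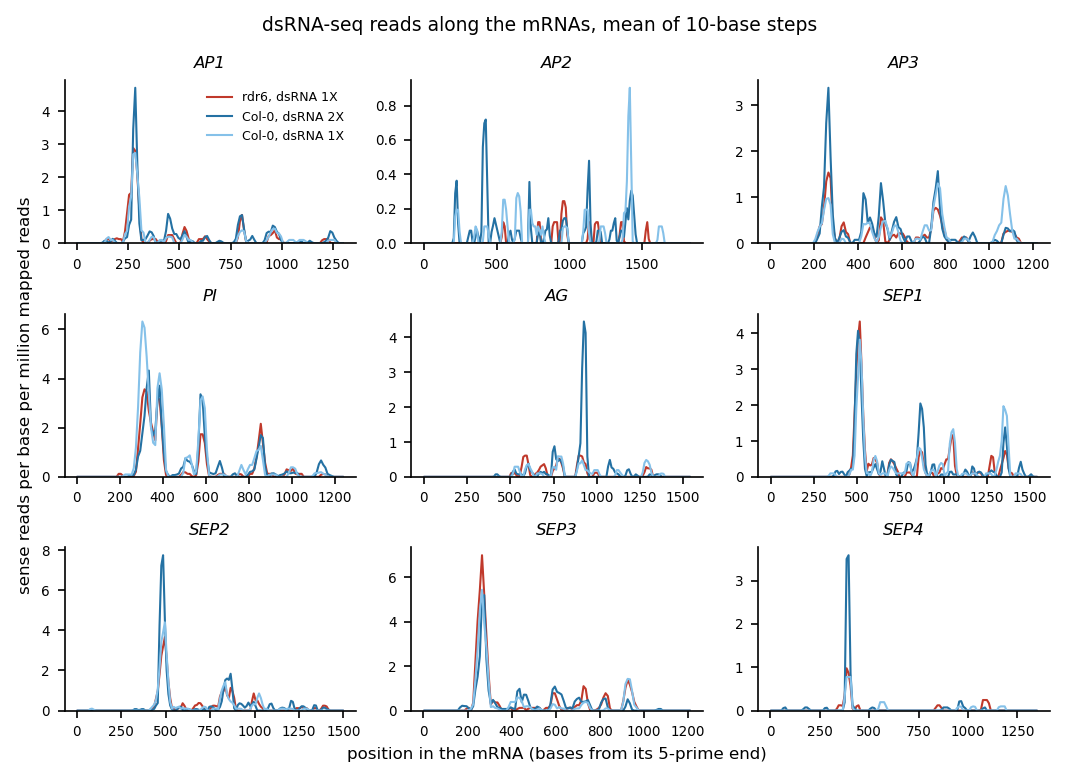
Sense dsRNA-seq reads per base per 1000000 mapped reads (y axis, scale set per gene) along the main mRNA of each gene in bases from its 5′ end (x axis), as means of 10-base steps, for rdr6 1X, Col-0 2X and Col-0 1X. AP1, PI, SEP1, SEP2, SEP3 and SEP4 have their tallest peak in the exon with the start codon in each library, and AG has a peak in exon 5 in Col-0 2X.

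Part of this pattern was carried by reads that match several MADS-box genes and were counted at each. Of the sense reads of SEP4, 60.0% in rdr6 1X, 81.5% in Col-0 2X and 57.1% in Col-0 1X had more than 1 location, as had 41.3%, 48.3% and 56.7% for AP1, 42.6%, 41.7% and 40.7% for SEP1, and 43.5%, 32.0% and 44.0% for SEP2. For SEP3 the share was 20%, 30.0% and 17.6%, and for AP2, AP3, PI and AG it was at most 3.28%. SEP1 and SEP2 shared 39, 76 and 48 reads with each other, and AP1 shared 24, 73 and 36 with its close paralog CAL.

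A read of 20 nt with 12 copies in Col-0 2X had locations in 5 of these genes, which are identical in the reference over its length. The 30 bases around it are shown as the coding strand reads in each gene, with capitals where a gene differs from AP1, to show the sequence on which counts of paralogs cannot be told apart.
AP1, chr1:25986053-25986082, minus strand: attgaagaggatagagaacaagatcaatag
CAL, chr1:9103461-9103490, minus strand: attgaagaggatagagaacaagatcaatag
SEP3, chr1:8595813-8595842, minus strand: attgaagaggatagagaacaagatcaatag
FUL (AGL8), chr5:24505964-24505993, minus strand: GCtgaagaggatagagaacaagatcaatag
SEP4, chr2:1129642-1129671, plus strand: GCtgaagaggatagagaacaagatcaatag

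With single-location reads the start-codon exon exceeded its share of bases in 5, 6 and 4 of the 9 genes. No share over all genes was computed for such reads. PI hardly changed (63.7%, 56.8% and 69.3%) and SEP3 had 54.2%, 36.1% and 59.1%, whereas AP1 had 39.4%, 12.0% and 25%. The peak of PI therefore lies in sequence of its own, and that of AP1 mainly in shared sequence.

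**Figure D5:**
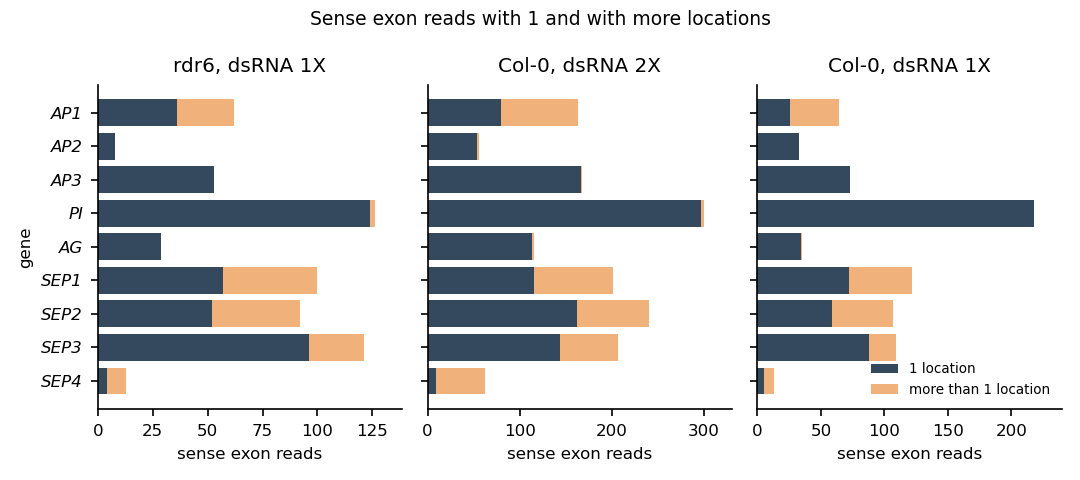
Sense exon reads of each gene (x axis, reads) in rdr6 1X, Col-0 2X and Col-0 1X, split into reads with 1 genome location (dark) and more than 1 (light). AP1, SEP1, SEP2 and SEP4 have many shared reads, while AP2, AP3, PI and AG have almost none.

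Reads covered between 11% (AP2) and 44.7% (AP3) of exon bases in rdr6 1X, between 15.9% (SEP4) and 58.2% (PI) in Col-0 2X, and between 11.8% (SEP4) and 53.9% (SEP1) in Col-0 1X. The medians of genes with 50 to 350 reads were 36.6%, 38.6% and 40%, a range that AP2, AG and SEP4 fell below in rdr6 1X and Col-0 1X. The longest unbroken covered stretches were 167 bases in SEP1 in rdr6 1X, 187 bases in PI in Col-0 2X and 226 bases in SEP2 in Col-0 1X, all in exon 1. In a minimum free energy fold of the main mRNA (RNAfold), covered bases were more often paired than uncovered ones in 9, 7 and 7 of 9 genes in these libraries, with the widest gap in the direction of the majority in AG (63.5% against 49.1% in Col-0 2X) and the widest in the other direction in SEP4 (54.7% against 61.1% in Col-0 1X). Other genes were not folded, so there is no background for these counts. Covered bases also had the higher GC content in 9, 8 and 7 of 9 genes, and its part in the fold result was not tested.

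Only SEP1 overlaps other annotated genes. Its 449 bases in common with AT5G02455, a lncRNA gene on the opposite strand, held 46, 85 and 46 dsRNA reads on the strand of SEP1 in rdr6 1X, Col-0 2X and Col-0 1X, and 1, 0 and 0 on the strand of the lncRNA. Its 100 bases in common with the protein-coding gene AT5G15790 held 0, 7 and 0 reads on the strand of SEP1 and none on the other.

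Other genes of flower development were taken from 4 lists. Of 15 other MADS-box flower genes 8 were tested, and of 15 regulators of organ identity genes 9. Of the 5 AP2-like genes 3 were tested, and of 8 organ growth genes 3. None was called in rdr6 1X over Col-0 1X, beside 6.18% of all genes tested called higher and 1.20% called lower. The median log2 ratios of the lists were 0.63, -0.18, -0.67 and 0.65, beside 0.33 over all genes. Between Col-0 2X and Col-0 1X, 12, 11, 3 and 5 genes of these lists were tested, with median log2 ratios of 0.88, 0.90, 0.74 and 1.33, and 4 were called higher, beside 21.4% of all genes tested: the fruit identity gene FUL (109 and 36 reads, log2 ratio 1.18), the ovule identity gene STK (43 and 5 reads, 2.68), the ovule regulator BEL1 (48 and 14 reads, 1.36) and NAP (20 and 2 reads, 2.90). In smRNA 2, 1, 3 and 1 genes were tested, SMZ was called lower as given above, beside 2.97% of all genes, and STK was called higher, beside 1.12% of all genes, with 196 reads in rdr6 and 91 in Col-0 (log2 ratio 1.05, exact p = 2.3e-09).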

How the data were processed

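dsRNA-seq and smRNA-seq reads were analysed in 5 libraries, 1 per group. The authors trimmed 3′ adapters, collapsed reads to non-redundant (NR) sequences and aligned them to TAIR9 with a few mismatches allowed, and deposited raw read counts per NR sequence with length, number of locations and all locations, without normalization. Here each read was placed by its middle base at every location on the TAIR10.1 gene models (NCBI RefSeq). At rRNA, tRNA, snRNA, snoRNA and miRNA genes it was left out at that location, so that miR172 reads stay at the AP2 site. Exon means an exon of any annotated mRNA, and intron the rest of the gene. Ratios were scaled by all mapped reads. A gene was called with at least 10 reads in the pair, at least 2-fold and a one-sided exact Audic-Claverie p under 0.001, over all nuclear protein-coding genes. Shares have 95% Wilson, levels exact Poisson and ratios Clopper-Pearson intervals, and the floor for 0 reads was 3 counts.

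The main mRNA of a gene is the one with the longest coding sequence. The miR172 site was found as the best match to the complement of miR172c, and reads within 2 bases of its ends were counted as at the site. Secondary structure was modelled with RNAfold 2.7.2 at default settings. Counting used pandas 2.3.3 and numpy 2.4.6, tests used scipy 1.17.1, and figures were drawn with matplotlib 3.10.9, all under Python 3.11.15. On simulated counts with 200 changed genes the rule found 86.0% (rdr6 1X over Col-0 1X, 14726 genes), 93.0% (Col-0 2X over Col-0 1X, 16098 genes) and 97.0% (smRNA, 7089 genes) of them. It also called 16, 14 and 2 unchanged genes. The changes were all 4-fold, in genes above a minimum of reads, and the counts had Poisson spread only. These rates therefore do not describe smaller changes, such as that of AP2, or genes with few reads, such as SEP4.

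The 9 genes and the lists of other flower genes were chosen with earlier results of these data known. Genes outside the 9 were named where they overlap a member, encode miR172, or were called in a list, at most the 3 with the largest log2 ratio per list and comparison. TOE1, TOE2, TOE3, SMZ and SNZ were also shown in full for their miR172 sites, and the paralogs CAL and FUL for shared reads, chosen after their values were seen. Alternatives were single-location reads, NR sequences, scaling by reads of protein-coding genes, placement by the 5′ base, no minimum of reads, a 4-fold minimum, leaving out reads of 20 to 25 nt, exons of the main mRNA, the Col-0 2X library as reference and, for smRNA, 21 or 22 nt and 24 nt reads. Counts without AP2 and without the miR172 site were added after seeing the data. The lists called flower bud, seed storage and root hair served only to check the tissue.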

Additional observations from a re-analysis of the deposited data

How the results depend on the processing

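Of 91 alternative values, 65 stayed close to the reported ones and 26 moved. Many of the 65 were counts of 0 members called under both settings, so the tally is not a measure of robustness. Some of these could not have moved, since a 4-fold minimum cannot raise a count of 0. The smRNA counts of 21 or 22 nt and of 24 nt tested only 1 member each. For rdr6 1X over Col-0 1X, 0 members were called lower with the 5′ base or a 4-fold minimum and 3 with Col-0 2X as reference, in place of 1. For Col-0 2X over Col-0 1X, members called higher were 1 with NR sequences and 0 with scaling by protein-coding reads, a 4-fold minimum or without reads of 20 to 25 nt, in place of 2. With single-location reads 3 were called higher (AG, AP1 and SEP2), which was taken as close although SEP4 was no longer among them. For smRNA, 1 member (AP2) was called lower with single-location reads, with NR sequences and without the miR172 site (added after seeing the data), in place of 0. The cause was not tested, except that leaving out the site removes the miR172 reads.

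The sense share of exon reads in rdr6 1X, Col-0 2X and Col-0 1X was 98.7%, 99.6% and 99.8% with single-location reads, 98.6%, 94.6% and 99.0% without reads of 20 to 25 nt, and, added after seeing the data, 98.8%, 99.8% and 100% without AP2 and 98.9%, 99.7% and 99.9% without the site. With NR sequences it was 96.6% in Col-0 2X and 97.2% in Col-0 1X. The sense share of intron reads was 98.4% in Col-0 2X with single-location reads and 100% in Col-0 1X without reads of 20 to 25 nt.

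Over all genes, rdr6 1X over Col-0 1X gave 930 higher and 180 lower calls. Higher and lower calls were 125 and 405 with NR sequences, 556 and 90 with single-location reads, 517 and 372 with scaling by protein-coding reads, 298 and 98 at 4-fold, 921 and 95 without 20 to 25 nt, and 1026 and 2177 against Col-0 2X. Col-0 2X over Col-0 1X gave 3740 and 611, with 2198 and 559 for NR sequences, 2959 and 278 for single-location reads, 562 and 916 under the other scaling, 688 and 369 at 4-fold and 1398 and 148 without 20 to 25 nt. smRNA gave 61 and 162, with 30 and 113 for NR sequences, 33 and 100 at 4-fold, 11 and 138 for 21 or 22 nt and 61 and 65 for 24 nt. No paired analysis was possible because each group has 1 library and the labels share no replicate numbers. With 8 to 301 sense exon reads per gene and library, counting error alone spans several-fold for AP2 and SEP4, and libraries cannot be told apart from genotypes.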
